A study of Schizosaccharomyces pombe with 6 samples.

Results

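The genes urg1, urg2 and urg3 of the fission yeast *Schizosaccharomyces pombe*, named for their regulation by uracil, and fur4, the gene of the uracil permease, are described here in cells that were exposed to hydrogen sulfide. The members were taken by name from the array's annotation, which pairs each of them with 1 probe set, so that 4 of the 4966 tested probe sets are covered. The group was chosen on results of these same arrays, in which the NaHS response of urg1 and urg2 was already known, and the values of all 4 members in that contrast are therefore given as a description without a test. Expression was measured in 6 cultures of the wild-type strain 972 h-, which had reached an OD600 of 0.5 in liquid culture. NaHS, a salt that releases H2S in water, was given at 50 µM for 30 min at 30°C to 3 cultures, and the other 3 cultures were left untreated. RNA of each culture went onto its own Yeast Genome 2.0 array from Affymetrix, and the series' design text states 3 biological repeats. The sample titles number these from 1 to 3, although every sample description also reads "biological rep1".

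Cells can make uracil nucleotides from small precursors (synthesis), take up ready-made uracil or uridine and turn it into nucleotides (salvage), or break the uracil ring down and use its nitrogen. In fission yeast, urg1, urg2 and urg3 are known for rapid induction when uracil is added to the medium, and the urg1 promoter is used as a uracil-inducible switch in laboratory strains. The product of urg1 is related to GTP cyclohydrolases and that of urg2 to uracil phosphoribosyltransferases. Relatives of both belong to a pathway for uracil breakdown that was worked out in the yeast *Lachancea kluyveri*. Fur4 carries uracil across the plasma membrane.

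All 4 genes lie in 1 short stretch of chromosome I. In the RefSeq annotation (ASM294v3), 6 protein-coding genes follow each other there, namely urg2 (SPAC1002.17c), urg3 (SPAC1002.18), urg1 (SPAC1002.19), toe1, uck2 and fur4 (SPAC1399.03). The probe annotation used here lists no probe set for toe1 and uck2, and they were not analysed here. It names few genes by a systematic ID. Probe sets it does not list still count in the totals, and a gene is called measured below only where that annotation lists it. The RefSeq reference lists 1 non-coding gene that overlaps urg1, 2 that overlap urg3 and 1 that overlaps fur4. Coordinates are left out because the sources name no genome build for the probe sets.

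The deposited signals are on a log2 scale, on which 1 unit is a 2-fold difference. Array medians of the tested probe sets ran from 9.49 to 9.58, and those of the *S. cerevisiae* probe sets, which have no matching RNA in these samples, from 0.01 to 0.40. All members were far above this background, with no blank value. The arrays numbered 1 stood apart from the others in both groups, and values without that replicate are given where they bear on a member.

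Expression of urg1 was more than 4-fold higher on each NaHS array than on its untreated counterpart. Its log2 signal was 8.18, 7.76 and 7.75 in untreated replicates 1, 2 and 3 and 10.34, 10.20 and 10.16 after NaHS. The groups were far apart, the lowest NaHS array lying 1.99 above the highest untreated one. The mean went from 7.90 ± 0.24 to 10.23 ± 0.09 (SD, n = 3 arrays per group), a log2 fold change of 2.34 (limma standard error 0.14), or 5.06-fold. Untreated replicate 1 was the highest untreated array of urg1, by 0.42 over the mean of the other two, and the pair numbered 1 accordingly showed the smallest rise, 2.17 against 2.44 and 2.41. Without that pair the mean change was 2.42.

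The signal of urg2 was also higher on every NaHS array, with a smaller change. It was 8.30, 8.36 and 8.26 on the untreated arrays and 9.88, 10.18 and 10.23 after NaHS. Here the untreated arrays were close together and NaHS replicate 1 was the lowest of the treated ones, by 0.33 against the mean of the other two. The mean went from 8.30 ± 0.05 to 10.10 ± 0.19 (SD, n = 3), a log2 fold change of 1.79 (standard error 0.11), or 3.46-fold, and without the pair numbered 1 the change was 1.90.

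The neighbour between them on the chromosome, urg3, was only modestly higher after NaHS. It had a signal of 9.47, 9.50 and 9.45 untreated and of 9.96, 9.93 and 9.95 after NaHS. The lowest NaHS array lay 0.43 above the highest untreated one. The standard deviation was 0.03 in the untreated group and 0.01 in the NaHS group, where the median over all tested probe sets was 0.13 for untreated arrays. The log2 fold change was 0.47 (standard error 0.06), or 1.39-fold, and it was 0.49, 0.43 and 0.50 in replicates 1, 2 and 3.

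In contrast to the urg genes, the permease gene fur4 was not higher after NaHS. Its signal was 10.41, 10.12 and 10.10 untreated and 10.17, 10.02 and 10.05 after NaHS. The 2 groups overlapped, and untreated replicate 1 was the highest of the 6 arrays. The log2 fold change was -0.13 (standard error 0.11). Its 95% interval, from the fit that does not pair the arrays, ran from -0.39 to 0.13. This leaves room for a small decrease or a small rise. By replicate number, the differences were -0.24, -0.09 and -0.06, so each pair was lower after NaHS. Without the pair numbered 1 the change was -0.07, and without untreated replicate 1 alone it was -0.03.

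**Figure D1:**
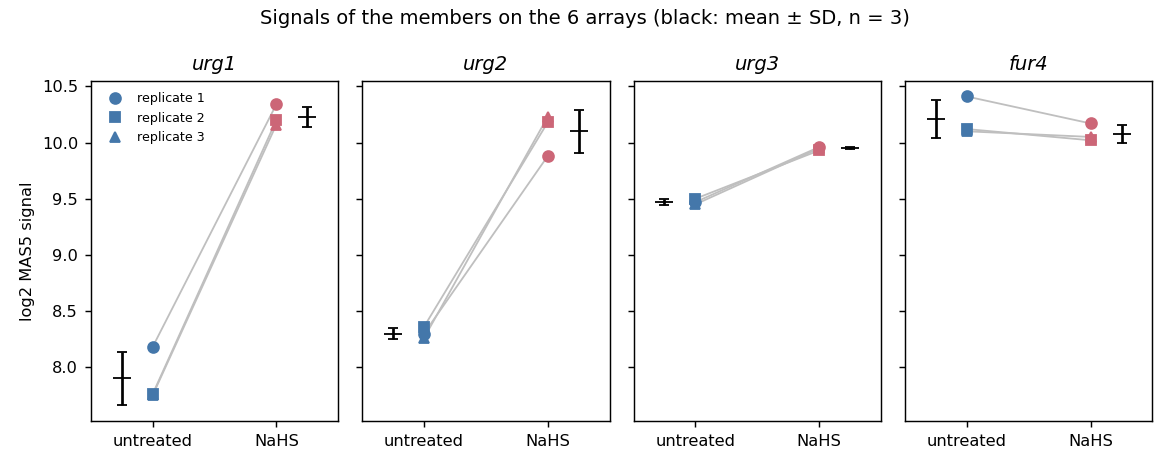
Log2 signal of urg1, urg2, urg3 and fur4 on each of the 6 arrays. Symbols mark the replicate numbers, grey lines join arrays of the same number, and black bars are the mean ± SD of 3 arrays. The groups are apart for the 3 urg genes and overlap for fur4.

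The order of the changes was the same in each replicate, with urg1 first, then urg2, urg3 and fur4. The rise of urg1 exceeded that of urg2 by 0.58, 0.61 and 0.44 on the log2 scale in replicates 1, 2 and 3, a mean of 0.55 ± 0.09 (SD, n = 3 pairs). The rise of urg2 exceeded that of urg3 by 1.32 ± 0.20 (SD), and the change of urg3 exceeded that of fur4 by 0.60 ± 0.11 (SD). Since the members were chosen on this contrast, these steps are a description and carry no weight of their own. The first and the last gene were 2.47 ± 0.06 (SD) apart. These are differences of changes, and the signals of different probe sets were not set against each other.

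Among all tested probe sets, the changes of urg1 and urg2 were at the upper end. Only 12 probe sets had a higher log2 fold change than urg1. Among the 2917 probe sets paired with 1 *S. pombe* gene, urg1 took place 9 and urg2 place 14 from the top, urg3 place 123 and fur4 place 2258. An absolute change larger than that of the gene was found in 0.242% of the tested probe sets for urg1, in 0.423% for urg2, in 10.1% for urg3 and in 51.9% for fur4. By absolute size, the change of the permease gene was therefore close to the middle of all probe sets, whose median absolute change was 0.14. With the sign kept, 74.6% of the tested probe sets had a higher change than fur4. Of the members, 3 passed an adjusted p of 0.05 in the limma fit, all of them higher, where 7.63% of all tested probe sets passed in either direction and 3.97% were higher. With 1 array left out, urg1 and urg2 passed in all 6 fits. Of these fits, urg3 passed in 3 and missed the threshold without untreated replicate 2, untreated 3 or NaHS 2. By SAM as programmed here, urg3 also missed the threshold. The study used SAM as well, but its own SAM result for urg3 was not used here. The version here called fewer probe sets than the study reports genes from its own SAM. In the 3 urg genes all NaHS arrays lay above all untreated arrays, which held for 14.6% of all probe sets. Since the genes were chosen on this contrast, these counts carry no weight of their own.

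**Figure D2:**
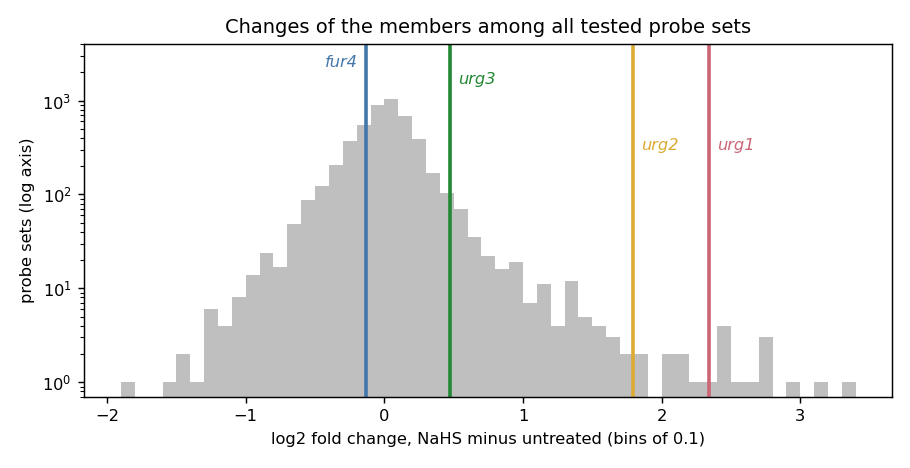
Number of tested probe sets (log axis) by log2 fold change after NaHS, in bins of 0.1, with the 4 members as vertical lines. The lines of urg1 at 2.34 and urg2 at 1.79 stand in the thin upper tail, that of urg3 at 0.47 on the shoulder and that of fur4 at -0.13 in the bulk.

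Because the members are neighbours, the genes on both sides were examined with the same fit. The 3 nearest protein-coding genes on the left of the stretch are med6, itt1 and tna1, and med6, which encodes a subunit of the Mediator of transcription, and itt1 are measured. The signal of med6 was 7.65, 7.30 and 7.36 untreated and 7.38, 7.14 and 6.93 after NaHS, and that of itt1 was 9.14, 9.25 and 9.22 against 9.23, 9.28 and 9.13. Both genes overlapped between the groups and neither passed the test, with log2 fold changes of -0.29 (limma adjusted p = 0.347) and 0.00 (adjusted p = 0.998). With the replicate number added as a block, a fit in which 32.7% of all probe sets passed, med6 was lower (adjusted p = 0.0351). The 3 nearest genes on the right, SPAC1399.02, SPAC1399.06 and SPAC1399.01c, are not paired with a probe set. When the view was widened, after these values had been seen, to the 10 nearest measured genes on each side, 1 of the 20 was higher and 0 were lower in limma (7.63% of all probe sets passed), against 2 higher and 1 lower at an unadjusted p below 0.05 (11.1% and 11.4% of all probe sets) and 1 higher and 0 lower by SAM. The exception was SPAC1002.07c, at 11.00, 11.23 and 11.35 untreated and 11.77, 11.93 and 11.88 after NaHS, a log2 fold change of 0.66 (limma adjusted p = 0.0230). When arrays were left out one at a time, it passed in the fits lacking either of the arrays numbered 1 (untreated or NaHS) and was lost in the other 4 fits, with a highest adjusted p of 0.102. The median change of the 20 flanking genes was 0.08, with a range from -0.33 to 0.66, and 5 of them passed with the block, 3 higher and 2 lower. The changes of urg1 and urg2 were above those of every measured flanking gene. This carries no weight of its own, since these genes were chosen with their change in this contrast known. The change of urg3 lay below those of SPAC1002.07c and bqt2. The latter, a telomere-tethering gene, had a signal of 0.48 to 3.72, near background, and a change of 0.61 (standard error 0.86).

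**Figure D3:**
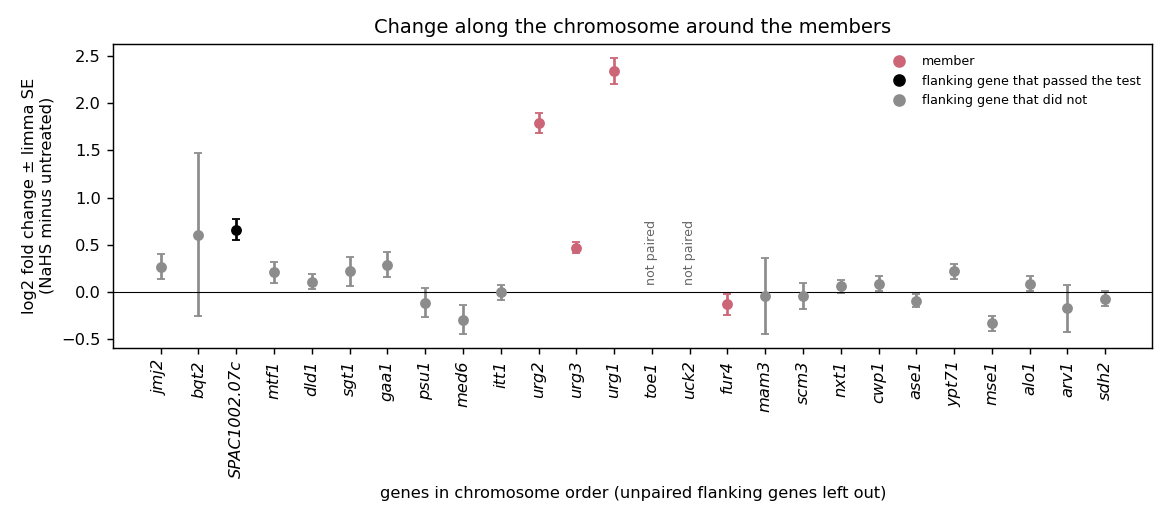
Log2 fold change after NaHS (points, with limma standard errors) of the members and the 10 nearest measured protein-coding genes on each side, in chromosome order. The points of urg1 at 2.34 and urg2 at 1.79 stand above all flanking genes, and toe1 and uck2, between urg1 and fur4, have no paired probe set.

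The genes for the synthesis of pyrimidine nucleotides, which include the uracil nucleotides, were examined next. Of 7 measured synthesis genes, 0 were higher and 1 was lower after NaHS (limma with Benjamini-Hochberg adjustment), where 3.97% and 3.66% of all tested probe sets were higher and lower. At an unadjusted p below 0.05 the counts were the same, and SAM called 0 in either direction. Their median log2 fold change was -0.19, against 0.01 over all tested probe sets. The gene that fell was ura3, which encodes dihydroorotate dehydrogenase, the mitochondrial enzyme of the pathway. Its signal was 12.25, 12.16 and 12.11 untreated and 11.80, 11.59 and 11.62 after NaHS. The groups did not overlap. Those of ura1 and cts1, described below, did not either, but the gap was only 0.02 for each. The share of all probe sets with every NaHS array lower was not counted, so this separation is not read as a result about the pathway. The log2 fold change of ura3, -0.50, had a standard error of 0.09 and an adjusted p of 0.0258 in limma. This call did not survive in most fits with 5 arrays, as it was kept without NaHS replicate 1 and lost in the other 5, with a highest adjusted p of 0.117.

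The remaining synthesis genes changed less. The signal of ura1, whose product carries out the first steps of the pathway, was 12.32, 12.36 and 12.32 untreated and 12.14, 11.97 and 12.30 after NaHS (log2 fold change -0.19, limma adjusted p = 0.332). That of cts1, for CTP synthase, was 12.20, 11.96 and 11.97 against 11.94, 11.61 and 11.74 (-0.28, adjusted p = 0.232). The dihydroorotase gene ura2, the orotidine phosphate decarboxylase gene ura4 and the orotate phosphoribosyltransferase gene ura5 had log2 fold changes of -0.04, -0.05 and -0.21. The nucleoside diphosphate kinase gene ndk1 was at 11.32, 11.30 and 11.35 untreated and at 11.44, 11.46 and 11.53 after NaHS. Its groups did not overlap (all NaHS arrays are higher in 14.6% of all probe sets). Its log2 fold change was 0.15 (limma adjusted p = 0.237). None of these 6 passed. With the replicate number as a block, cts1 (adjusted p = 0.0158) and ura5 (adjusted p = 0.0427) passed as well, so that 3 of the 7 were lower, and in this fit 32.7% of all probe sets passed. The eighth name of the list, ura6, is not paired with a probe set.

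**Figure D4:**
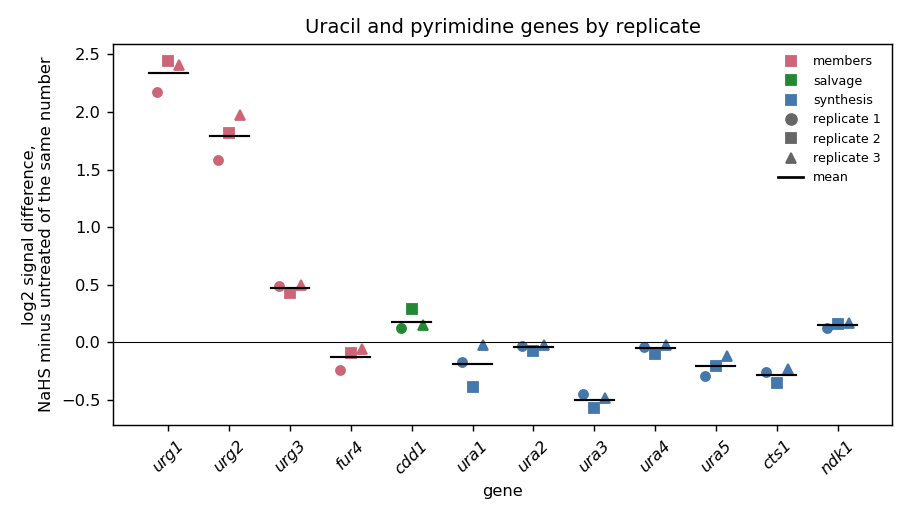
Difference in log2 signal between NaHS and untreated arrays of the same replicate number for the 4 members (red), the salvage gene cdd1 (green) and 7 synthesis genes (blue), with black bars at the mean. The rises of urg1 and urg2 stand far above all others, and ura3 is the lowest gene at a mean of -0.50.

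Few genes of salvage, breakdown and transport could be followed by name, and the values below say nothing about the rest of their lists. The study itself lists a uridine ribohydrolase, a uricase and a purine nucleoside transporter, all predicted, among the genes raised more than 2-fold. Of 10 genes listed for pyrimidine salvage and breakdown, 1 is listed in the probe annotation, cdd1, which encodes cytidine deaminase. The other 9, among them the uridine ribohydrolase gene urh1, were not analysed here. The signal of cdd1 was 8.86, 8.91 and 8.97 untreated and 8.98, 9.20 and 9.11 after NaHS, with a log2 fold change of 0.18 (limma adjusted p = 0.271). None of the 9 names listed for nucleobase and nucleoside transport is paired with a probe set in the annotation used, and they were not analysed here either. Of the genes for urea and purine breakdown, 2 are listed, while others, such as the uricase gene uro1, were not analysed here. The urease gene ure2 was at 9.89, 9.92 and 9.85 untreated and at 10.09, 10.06 and 10.10 after NaHS, a log2 fold change of 0.20 (limma adjusted p = 0.136; with the block adjusted p = 0.0353, where 32.7% of all probe sets pass). The nickel transporter gene nic1 had a log2 fold change of 0.28 with a standard error of 0.64, and its signal was 7.34 and 7.36 on the arrays numbered 1 and between 5.43 and 5.98 on the other four.

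A pair of further lists was drawn up after values had been seen. In the first, 8 genes for the supply of purine and deoxynucleotides, 0 passed the test in either direction (limma, 7.63% of all probe sets), with changes from -0.19 to 0.07, and 0 passed at an unadjusted p below 0.05 or by SAM. It includes prs1, the gene for the synthetase of phosphoribosyl pyrophosphate, the partner substrate of uracil phosphoribosyltransferases (log2 fold change -0.11, adjusted p = 0.749), gua2, for GMP synthase (-0.15, adjusted p = 0.404), and cdc22, for the large subunit of ribonucleotide reductase (-0.17, adjusted p = 0.284). In the second, 4 genes of ammonium assimilation, 0 passed as well, with 2 higher at an unadjusted p below 0.05 (11.1% of all probe sets) and 0 by SAM. The glutamate dehydrogenase genes gdh1 and gdh2 had log2 fold changes of 0.36 (adjusted p = 0.118) and 0.25 (adjusted p = 0.119), with no overlap between the groups (all NaHS arrays are higher in 14.6% of all probe sets), while those of gln1, for glutamine synthetase, and glt1, for glutamate synthase, were 0.10 and 0.00. With the block, in which 32.7% of all probe sets passed, gdh1 (adjusted p = 0.0374) and gdh2 (adjusted p = 0.0297) passed as higher and spd1, an inhibitor of ribonucleotide reductase, as lower (adjusted p = 0.0389, against 0.694 without it).

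The profile of urg1 over the 6 arrays was compared with those of 2916 other named genes. Pearson's r is given as a description, since the arrays are shared and the contrast between the groups sets most of it. The genes most like urg1 were gal1, for galactokinase (r = 0.999), the gene of the transcription factor Scr1 (0.996), gal10, for an epimerase of galactose metabolism (0.996), ubx3 (0.996) and aes1 (0.996). All of them were higher on each NaHS array than on each untreated array, which held for 14.6% of all probe sets. This follows from picking them for likeness to urg1 and is no result of its own. They differed in amplitude, with log2 fold changes from 0.59 for scr1 to 2.69 for gal10. The correlation of urg1 with urg3 was 0.988 and with urg2 0.978, places 22 and 38 among the 2916, and an r above 0.95 was reached by 90 genes. That of urg1 with fur4 was -0.399.

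The genes most like fur4 were sld3, for a factor of DNA replication initiation (r = 0.991), the splicing gene prp3 (0.988), ppr1 (0.974), prp43, for a helicase of splicing (0.969), and fhn1 (0.965). These 5 genes have in common that untreated replicate 1 was their highest array, as for fur4 itself, and none of them passed the test between the groups without the block. With it, ppr1 (adjusted p = 0.0265), prp43 (adjusted p = 0.0191) and fhn1 (adjusted p = 0.0487) were lower, where 32.7% of all probe sets passed, and fur4 was not called. Within the untreated group, urg1 shared this deviation, with 0.28 above its group mean in replicate 1 against 0.20 for fur4, whereas urg2 and urg3 were each 0.01 below theirs.

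**Figure D5:**
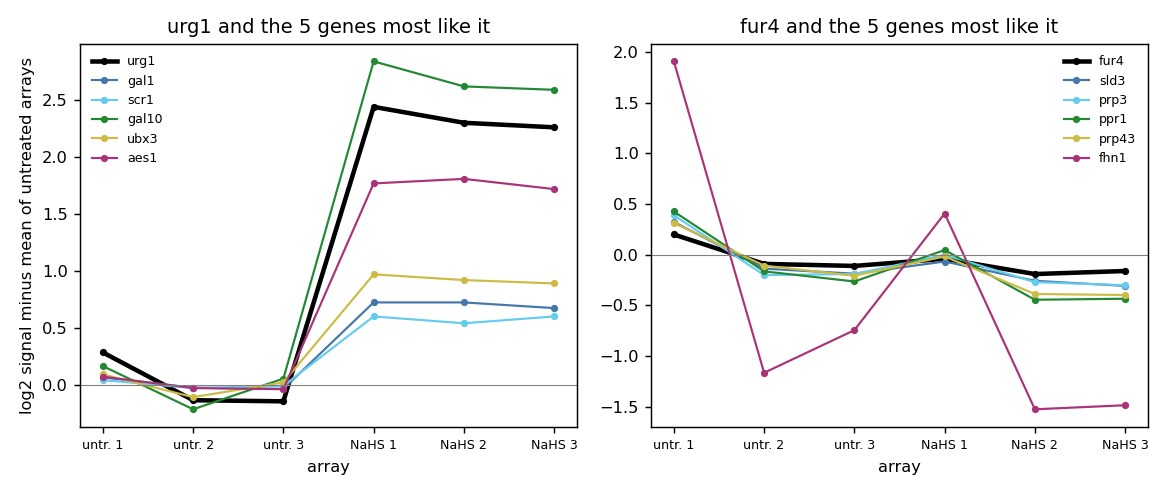
Log2 signal minus the mean of the untreated arrays for urg1 (left, black) and fur4 (right, black), each with the 5 named genes whose profile over the 6 arrays is most like it. The genes at the left step up on the 3 NaHS arrays, and those at the right are highest on untreated replicate 1.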

How the data were processed

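The labels give 3 untreated and 3 NaHS-treated arrays. The deposited log2 signals per probe set were made with MAS5 by the authors' array service, which scaled each array, so a change in total RNA per cell cannot be seen. The sources used here give neither the version of MAS5 nor its scaling target. Blank cells were set to 0 (23.59% of all, and 8 tested probe sets). Tested were the 2937 probe sets paired with *S. pombe* genes and 2029 unlisted ones whose mean exceeded 3.67 (percentile 99 of the means of probe sets for *S. cerevisiae*). Genes were renamed through their Entrez IDs with RefSeq.

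The comparison of the groups used limma 3.58.1 under R 4.3.3 (two-sided moderated test, 2.02 prior and 4 residual degrees of freedom) with Benjamini-Hochberg adjustment over 4966 probe sets. The code was first run on simulated signals with independent noise, which lack the link between arrays of the same number. Means, correlations and plots were made in Python 3.11.15. Deviations of arrays with the same replicate number from their group means correlated at 0.867, 0.578 and 0.598. The numbers were therefore taken as a pairing for the differences by replicate and for the block. The main fit, with its standard errors and intervals, was planned without this pairing, because the study's methods name no block. Replicates 2 and 3 also correlated across numbers, at 0.592 and 0.637. Alternatives were quantile normalization, median centring, the replicate block, other filters, blanks left missing, SAM and leaving out each array. SAM, the test of the methods, was programmed here with 20 label arrangements. It called fewer probe sets than the study's own SAM called genes, so its calls are not those of the study. Named genes were the members, called genes and up to 3 others of each list, the neighbours, and the 5 genes most like urg1 and fur4; some others are named to complete a list. Members and lists were chosen with earlier results of these data known, and the widened neighbourhood and the lists for nucleotide supply and ammonium after values had been seen. Promoter and protein sequences were planned but not analysed here. With 3 arrays per group, the number of arrays limits the precision.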

Additional observations from a re-analysis of the deposited data

How the results depend on the processing

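The log2 fold changes of urg1, urg2 and urg3 moved by less than 1 SD of their replicate differences under all alternatives that were run. That of fur4 was between -0.18 and -0.03 with 1 array left out. SAM as programmed here, by which urg3 missed the threshold, adds a constant of 0.426 to each standard error (0.06 for urg3 in limma). Over all probe sets, 197 higher and 182 lower became 807 and 815 with the replicate block, 118 and 31 by SAM, and 67 to 134 and 24 to 97 with 1 array left out, the fewest higher without untreated replicate 3 and the fewest lower without untreated replicate 2. The lower synthesis genes were 3 with the replicate block, 0 by SAM and 0 to 1 with 1 array left out. With the replicate block, 1 gene of urea and purine breakdown, 1 of nucleotide supply, 2 of ammonium assimilation and 5 of the flanking genes were called. Of the flanking genes, 2 were called with quantile normalization, 0 without a filter on low values and 0 to 1 with 1 array left out. The cause of these shifts was not tested. The replicate block changed no call of a member.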
